A study of Homo sapiens with 4 samples.

Results

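The core spliceosome components described here are 55 human genes of the snRNPs, the PRP19 complex and the catalytic steps of splicing. They were chosen by name, as partners of the spliceosomal protein ESS2, and every probe whose accession mapped to one of them was read. This gave 71 probes of the 58201 on the array, and 55 of 25121 genes with a symbol. PC3 and DU145 are established lines of human prostate cancer cells, and their RNA was hybridised to 4 one-colour Agilent arrays, 1 per condition. PC3-shC and DU145-shC carried a control shRNA against luciferase, and PC3-shESS2 and DU145-shESS2 carried an shRNA against ESS2. All 4 were grown in the same RPMI medium with serum. PC3-shESS2 was a stable line selected with puromycin after plasmid transfection by the study's methods, while the labels call the cells of both lines transduced. Whether it was 1 clone or a pool, and how the DU145 lines were made beyond that word, is not given in the sources used here. The cells were measured in bulk, where fewer cells and less RNA per cell cannot be told apart. The question was whether the partners of ESS2 respond to its knockdown in either line.

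The spliceosome removes introns in 2 chemical steps. It is built on each intron from small nuclear ribonucleoproteins (snRNPs), particles of 1 snRNA with its proteins. U1 reads the 5′ splice site, the U2AF dimer and U2 read the 3′ splice site and the branch point, and U4/U6 and U5 then join as the tri-snRNP. The PRP19 complex, which holds the ubiquitin ligase PRPF19, enters at activation and stabilises the catalytic core, and DEAH-box helicases drive the steps that follow. ESS2 is a protein of the C complex, in which the second step is prepared.

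Levels are given as scaled log2 values, in which 0 is the 75th percentile of the signal on that array, and a response is the difference of 2 such values, the log2 ratio of shESS2 over shC. There were no replicates, so no value carries an SD and no p-value was computed within a line. The only error at hand was that between spots of 1 probe. The SD of a ratio of single spots had a median of 0.084 in PC3 and 0.082 in DU145 over the probes spotted 10 times, and it covers neither the hybridisation nor the cells. The 75th percentile of the signal lay between 212 and 290 on the 4 arrays, and 50.8 to 52.6% of non-control spots were well above background.

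ESS2 itself was at -0.98 on PC3-shC and -2.44 on PC3-shESS2, and at -1.31 on DU145-shC and -3.66 on DU145-shESS2. The log2 ratio was -1.45 in PC3 and -2.35 in DU145, that is 2.74-fold and 5.09-fold lower. With normexp background correction, which adds an offset of 50 to every signal, the ratios were -0.90 and -1.13, so that ESS2 was then short of 2-fold in PC3. The probe stayed well above background on all 4 arrays. The cell line labels were also checked against markers. The probe of CTNNA1, a catenin gene deleted in PC3 cells, was dim on both PC3 arrays and well above background on both DU145 arrays. The epithelial markers KRT8, KRT18, EPCAM and CDH1 were well above background on all 4, though EPCAM had signals of 2120 on DU145-shC and 357 on DU145-shESS2, a log2 ratio of -2.61. Markers of other cells were not uniformly absent. Among markers of leukocytes, endothelium and fibroblasts, CD3E, COL1A2 and DCN were dim on all 4 arrays, while PTPRC, CDH5, VWF and COL1A1 were well above background on all 4, with signals between 24.4 and 265. PECAM1 was well above background on both PC3 arrays, with signals of 338 on PC3-shC and 16.4 on PC3-shESS2. Of the prostate secretory genes, KLK3 was dim on all 4 and KLK2 well above background on all 4. Their part in the results was not tested.

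All 55 genes were well above background on every array, so none was lost to a filter. Their levels ran from a mean of -2.17 for SYF2 to 7.67 for SNRPG, with a median of 3.44. Of the 55, 48 lay above the 75th percentile of the array, against 37.1% of all genes.

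No core spliceosome gene was past 2-fold in either line. In PC3 0 of 55 were past 2-fold, where 7.75% of the 16764 genes compared were. In DU145 0 of 55 were past 2-fold, where 4.83% of 16842 genes were. At 1.5-fold, 1 of 55 was counted in PC3, BCAS2, which was higher, against a background of 20.0% in either direction, 10.1% higher and 9.98% lower. With a log2 ratio of 0.50 under median scaling, BCAS2 was no longer past 1.5-fold. In DU145 1 of 55 was counted, ISY1, which was lower, against 15.8% in either direction, 8.63% lower and 7.18% higher. No gene was past 1.5-fold in the same direction in both lines, where 3.05% of 15478 genes were.

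**Figure D1:**
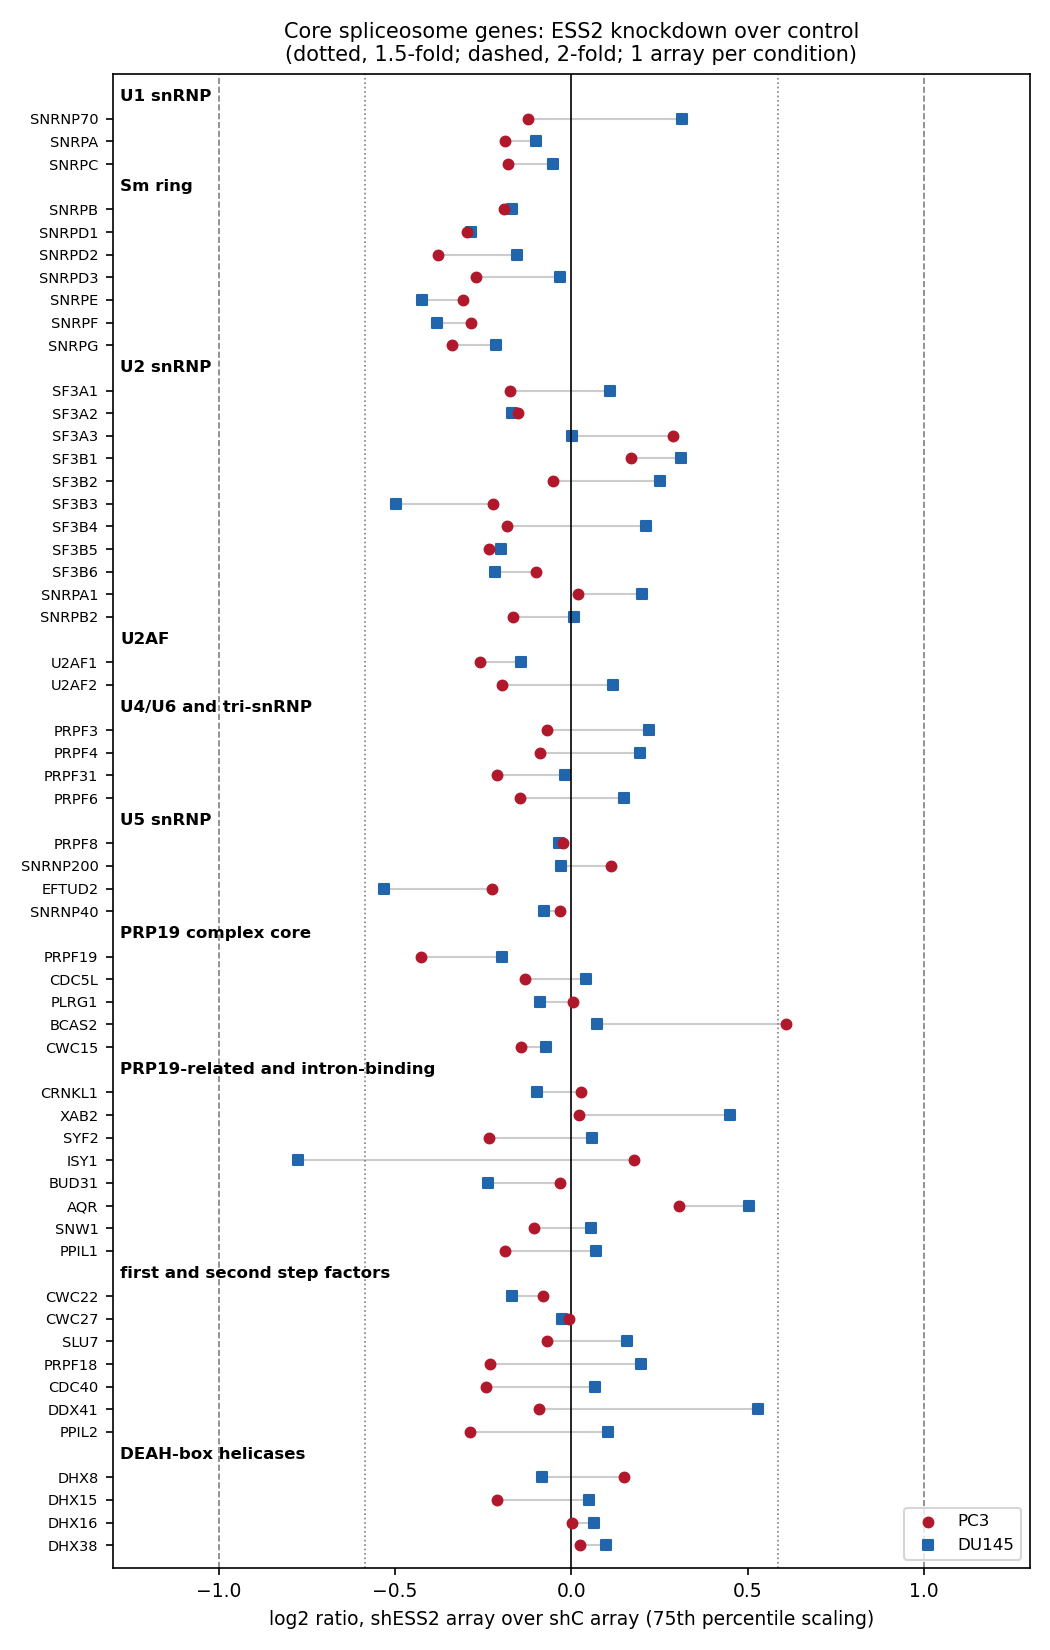
The log2 ratio of shESS2 over shC (x axis) is plotted for each of the 55 genes (rows, grouped by subcomplex), with circles for PC3 and squares for DU145; each point is 1 array over 1 array. All points lie inside the dashed 2-fold lines, and BCAS2 in PC3 and ISY1 in DU145 are the only ones outside the dotted 1.5-fold lines.

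Smaller differences leaned downwards in PC3. There 42 of 55 genes were lower after knockdown, against 55.7% of all genes compared. The median log2 ratio of the 55 was -0.14, against -0.055 for all genes, a difference of -0.089 that was -0.032 under quantile normalisation and -0.046 with normexp. This count depended on the scaling, and 48, 36 and 33 genes were lower when the arrays were scaled to their median, quantile normalised or taken as the authors' scaled values. Scaling to the median moved the median of all genes in PC3 from -0.055 to -0.16. In DU145 the genes were evenly split. Of the 55, 28 were lower, against 52.8% of all genes, and the median was -0.018, against -0.022 for all genes, with a sign that turned to 0.011 when the arrays were scaled to their median. Of the 55 ratios, 29 in PC3 (24 lower and 5 higher) and 25 in DU145 (14 lower and 11 higher) were larger than 2 spot SDs, and so were those of 67.6 and 62.4% of all genes.

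In the Sm ring all 7 genes had ratios below 0 in both lines with the main scaling, and none was past 1.5-fold. The ring is made of 7 proteins, SNRPB, SNRPD1, SNRPD2, SNRPD3, SNRPE, SNRPF and SNRPG, which close around the snRNAs of U1, U2, U4 and U5. SNRPB, the subunit with the long proline-rich tail, was at 5.83 on PC3-shC and 5.64 on PC3-shESS2, and at 4.47 on DU145-shC and 4.30 on DU145-shESS2. SNRPD1 was at 7.14 and 6.84 in PC3 and at 6.64 and 6.35 in DU145. The knockdown array was the lower one in each pair. For SNRPD2 the control and knockdown levels were 5.85 and 5.48 in PC3 and 5.36 and 5.21 in DU145. SNRPD3 stood at 3.93 and 3.66 in PC3 and at 2.97 and 2.94 in DU145, and the DU145 difference of -0.03 was inside the spot error. SNRPE, a gene with many processed copies in the genome, was at 6.05 and 5.74 in PC3 and at 5.26 and 4.83 in DU145. Its 4 probes were all lower in both lines, with log2 ratios of -0.59 to -0.31 in PC3 and -0.50 to -0.27 in DU145. SNRPG was at 8.16 and 7.83 in PC3 and at 7.44 and 7.23 in DU145.

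SNRPF was spotted 10 times on each array. Its signal was 33000 to 37600 on PC3-shC and 30500 to 32700 on PC3-shESS2. On DU145-shC it was 10600 to 11900 and on DU145-shESS2 8460 to 9590. The spots of the control and the knockdown array did not overlap in either line, and the log2 ratio was -0.28 in PC3 and -0.38 in DU145. Spots of the same array are not replicates of the condition. How many other probes spotted 10 times had such a gap was not counted. By the limit of spot SDs given above, 67.6% of all genes in PC3 and 62.4% in DU145 were also beyond the spot error.

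Over the ring, 7 of 7 genes and 13 of 13 probes were lower in each line, with a probe range of -0.59 to -0.19 in PC3 and -0.50 to -0.03 in DU145; under quantile normalisation and under normexp background correction 7 of 7 genes were lower in PC3 and 6 of 7 in DU145. The median ratio of the 7 genes was -0.30 in PC3 and -0.21 in DU145. Under median scaling, quantile normalisation and the authors' scaled values it was -0.40, -0.17 and -0.21 in PC3. All genes then had medians of -0.16, -0.02 and 0.04 there. In DU145 the ring had -0.19, -0.17 and -0.19. Bright genes as a whole were also lower. The 2663 other genes at or above the lowest Sm level in PC3 had a median of -0.12, with 67.0% of them lower, and the middle of their range, between the quartiles, ran from -0.28 to 0.08. In DU145 the 3320 such genes had a median of -0.04, with 56.6% lower and quartiles of -0.21 and 0.13. Signal level moved with the result, and its part in the result was not tested.

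**Figure D2:**
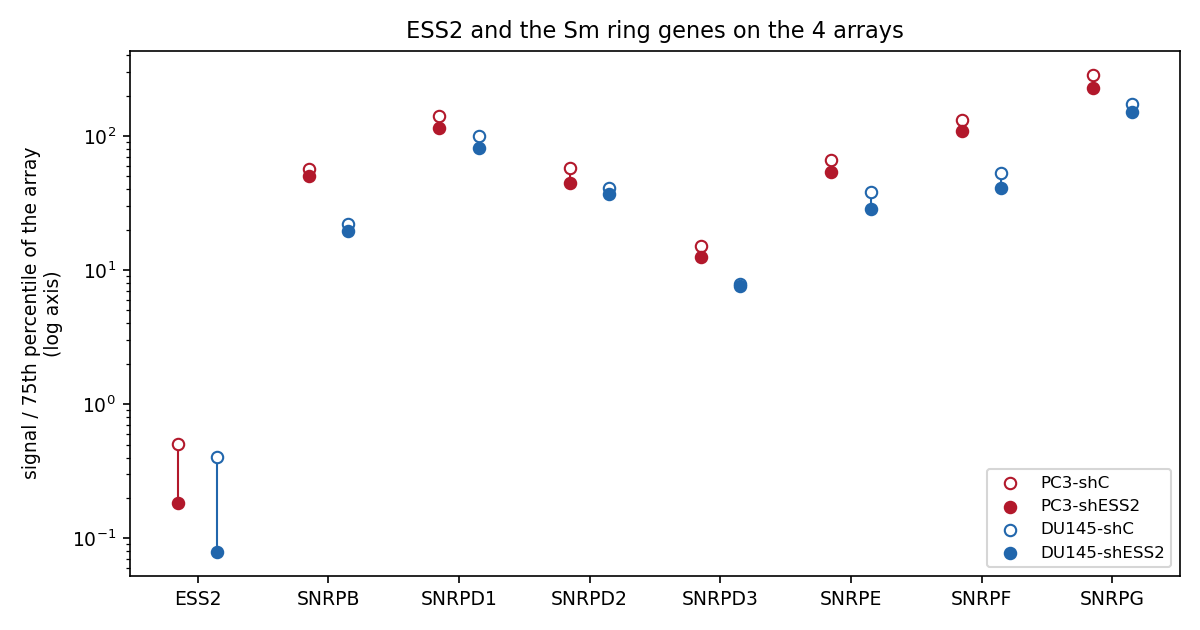
The signal over the 75th percentile of the array (log axis) is plotted for ESS2 and the 7 Sm ring genes, with open circles for shC and filled circles for shESS2, 1 array each, in PC3 (left of each pair) and DU145 (right). ESS2 is 2.74-fold lower in PC3 and 5.09-fold lower in DU145 (log2 ratios of -0.90 and -1.13 with normexp), while the Sm genes are lower by 12.3 to 23.0% in PC3 and by 2.17 to 25.4% in DU145; SNRPD3 in DU145 is not lower under quantile normalisation or normexp.

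Many promoters of these genes hold the same short motif. Sequences from 250 bases before the start of the gene up to the start, taken from RefSeq on GRCh38.p14, were found for 52 of the 55 genes. The ETS core CCGGAAG, the letters read by ETS family factors, was present on either strand in 29 of 52 (55.8%), against 8.82% of all 27305 promoters and 14.8% of the 12024 promoters of genes compared in both lines. In the Sm ring it was present in 4 of the 6 promoters found, those of SNRPB, SNRPD2, SNRPE and SNRPG. The windows of these 4, whose genes were lower in both lines, are printed with those of AQR, which was higher in both, and of ISY1, which was higher in PC3 and lower in DU145. Capitals mark the motif, as CCGGAAG or, on the opposite strand, as CTTCCGG. Each is written 5′ to 3′ on the strand of the gene.
SNRPB, chr20:2470813-2470841, minus strand: agtgagctggaCCGGAAGtaggtttctac
SNRPD2, chr19:45692362-45692390, minus strand: ggtccatgcccCTTCCGGatgtaggcagg
SNRPE, chr1:203861597-203861623, plus strand: ttctttattCCGGAAGttgctctcaga
SNRPG, chr2:70293491-70293519, minus strand: cttcatttcttCTTCCGGtccgaggtcgc
AQR, chr15:34969808-34969836, minus strand: gcctgcatgaaCTTCCGGctacacgccat
ISY1, chr3:129161129-129161157, minus strand: tcgtctgggcaCTTCCGGtactcccattc
The motif lay 34 bases before the start in SNRPB, 56 in SNRPD2, 43 in SNRPG and 234 in SNRPE. The median log2 ratio of the genes with and without it was -0.14 and -0.13 in PC3 and 0.01 and -0.03 in DU145. The same 250 bases were searched on both strands for other motifs. CCAAT was found in 32.7% of the 52 promoters and 33.0% of all, TATAAA in 5.77 and 11.1%, and CACGTG in 3.85 and 6.49%. The NRF1 core GCATGCG was found in 3.85 and 3.57%, and the YY1 core ATGGCGG in 1.92 and 2.83%. None of these letters contains the ETS core. A match says only that the letters are there.

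Among the U1 proteins, all 3 had ratios below 0 in PC3, between -0.19 and -0.12, and the sign, though not the size, held under each scaling tried. SNRNP70, the protein that grips the first stem of U1 snRNA, was at 2.53 and 2.41 on the PC3 control and knockdown arrays and at 1.73 and 2.05 on those of DU145. Its log2 ratio was -0.12 in PC3 and 0.31 in DU145. SNRPA and SNRPC, the other U1 proteins, had -0.19 and -0.18 in PC3 and -0.10 and -0.05 in DU145, where the second probe of SNRPC gave 0.08.

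The 11 U2 proteins went different ways. In PC3 8 of 11 and in DU145 4 of 11 were lower, with medians of -0.15 and 0.01. With the mean of the probes of a gene 6 of 11 were lower in DU145, and the median was -0.03. In PC3 9, 6 and 7 of 11 were lower under median scaling, quantile normalisation and the authors' scaled values. The medians there were -0.25, -0.06 and -0.06. SF3B1, the scaffold that holds the branch point helix and the target of splicing modulator drugs, was at -0.40 and -0.23 in PC3 and at 0.02 and 0.33 in DU145. Both knockdown arrays were the higher ones, and the log2 ratio was 0.17 in PC3 and 0.31 in DU145. SF3B3, a beta-propeller protein of the same subcomplex, was at 4.08 and 3.86 in PC3 and at 3.67 and 3.17 in DU145. This was lower by 14.2% in PC3 and by 29.1% in DU145, and its 3 probes were lower in both lines, between -0.37 and -0.19 in PC3 and between -0.70 and -0.47 in DU145. SF3A3, of the SF3A trimer, was at 4.48 and 4.76 in PC3 and at 2.70 on both DU145 arrays. Its second probe had the opposite sign, with -0.23 in PC3 against 0.29 for the brighter one, and -0.31 in DU145 against 0.00, so the gene has no single direction. The 2 U2AF subunits had ratios of -0.26 and -0.20 in PC3. U2AF1, the small subunit that reads the AG of the 3′ splice site, was at 7.49 and 7.23 in PC3 and at 6.87 and 6.73 in DU145. It has a near-identical copy in newer genome builds, and its 1 probe may read both.

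In the tri-snRNP, PRPF3, PRPF4 and PRPF31 of U4/U6 and PRPF6, which bridges them to U5, were below 0 in PC3, with a median of -0.12, and 3 of 4 were above 0 in DU145, with a median of 0.17; the remaining one, PRPF31, had -0.02 by its brighter probe and 0.17 by the other, and in the authors' scaled values only 2 of the 4 were below 0 in PC3. PRPF3, which binds U4/U6 snRNA and is mutated in a form of retinitis pigmentosa, had signals of 599 and 630 on the PC3 control and knockdown arrays and of 424 and 508 on those of DU145, with scaled log2 ratios of -0.07 and 0.22. The U5 proteins form the catalytic scaffold. PRPF8, the largest of them, was at 3.43 and 3.41 in PC3 and at 3.80 and 3.77 in DU145, differences of -0.02 and -0.04 that are inside the spot error. EFTUD2, the U5 GTPase that regulates activation and disassembly, was at 6.33 and 6.10 in PC3 and at 5.38 and 4.85 in DU145. With -0.53 it was the second lowest ratio of the 55 in DU145, 30.8% below its control. SNRNP200, the helicase that unwinds U4/U6, had 0.11 and -0.03. SNRNP40 had -0.03 and -0.08 by its brighter probe and 0.30 and 0.31 by the other.

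The PRP19 complex had genes on both sides of 0. Of the 5 core proteins, 3 were below 0 in each line, with medians of -0.13 in PC3 and -0.07 in DU145; with the mean of the probes of a gene 2 of 5 were below 0 in PC3, and the median was 0.00. PRPF19, the ubiquitin ligase at its centre, was at 7.73 and 7.30 in PC3 and at 6.52 and 6.33 in DU145. Its ratio of -0.43 was the lowest of the 55 in PC3, 25.6% below control, and in DU145 it was -0.20. BCAS2, a small helical partner of PRPF19, went the other way. It was at 4.51 on PC3-shC and 5.12 on PC3-shESS2, and at 2.54 on DU145-shC and 2.61 on DU145-shESS2. The log2 ratio of 0.61 in PC3, 52.4% above control, was the highest of the 55 there, and the ratio in DU145 was 0.07. Across the scaling and filter alternatives it lay between 0.50 and 0.71 in PC3. CDC5L, PLRG1 and CWC15, the other core proteins, had -0.13, 0.00 and -0.14 in PC3 and 0.04, -0.09 and -0.07 in DU145.

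The 8 PRP19-related and intron-binding proteins ran from -0.23 to 0.30 in PC3 and from -0.78 to 0.50 in DU145. AQR, the helicase that binds the intron upstream of the branch point, was at 0.24 and 0.54 in PC3 and at -0.80 and -0.29 in DU145. Both knockdown arrays were higher, by 23.5% in PC3 and by 41.9% in DU145, with log2 ratios of 0.30 and 0.50. XAB2, a helical repeat protein that also acts in transcription-coupled repair, was at -1.17 and -1.15 in PC3 and at -2.36 and -1.91 in DU145. Only the DU145 pair differed beyond the spot error, with a ratio of 0.45. ISY1, which helps position the substrate in the first step, was at 0.40 and 0.58 in PC3 and at 0.72 and -0.06 in DU145. Its log2 ratio was 0.18 in PC3 and -0.78 in DU145, 41.6% below control, so the 2 lines had opposite signs. ISY1 has 1 probe, and the files do not show whether that probe also reads the readthrough transcript ISY1-RAB43. The separate probe of ISY1-RAB43 had signals of 26.9 and 74.6 in PC3, a log2 ratio of 1.33, and was dim on both DU145 arrays. The other 5 genes of the group, CRNKL1, SYF2, BUD31, SNW1 and PPIL1, had ratios between -0.24 and 0.07 in both lines.

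Of the 7 first and second step factors, 7 were below 0 in PC3 and 2 in DU145, with medians of -0.09 and 0.10; in PC3 the count was 4 of 7 in the authors' scaled values. SLU7, which helps select the 3′ splice site in the second step, was at 2.77 and 2.70 in PC3 and at 1.97 and 2.13 in DU145. DDX41, a DEAD-box helicase mutated in inherited myeloid disease, was at 3.31 and 3.22 in PC3 and at 2.03 and 2.55 in DU145. With 0.53 it had the highest ratio of the 55 in DU145, 44.2% above control, against -0.09 in PC3. PRPF18 and CDC40, both second step factors, had -0.23 and -0.24 in PC3 and 0.20 and 0.07 in DU145. The second probe of CDC40 gave -0.04 in PC3 and, with the opposite sign, -0.06 in DU145. The 4 DEAH-box helicases stayed within -0.21 and 0.15. DHX8, which releases the spliced mRNA, was at 1.97 and 2.12 in PC3 and at 1.64 and 1.55 in DU145. DHX16 and DHX38, which drive the first and second step, had ratios of 0.00 and 0.02 in PC3 and 0.06 and 0.10 in DU145.

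Between the lines, 31 of 55 genes had the same sign, against 57.0% of all genes compared in both. Of these, 23 were lower in both lines (33.3% of all genes) and 8 higher in both (23.7%). Without the 7 Sm genes, 24 of 48 had the same sign. The responses of 2 genes differed between the lines by over 1.5-fold, ISY1 and DDX41, against 25.1% of all genes. Limma, in a fit over the 4 arrays that took the line as a block and left 1 residual degree of freedom, called 0 of the 55 and 0 of 17126 genes after Benjamini-Hochberg adjustment. At an unadjusted p under 0.05 it gave 0 of the 55 and 1047 (6.11%) of all genes. AQR had the lowest p of the 55 by limma, with a mean log2 ratio of 0.40 ± 0.18 (SE) over the lines and an adjusted p of 0.746. For the Sm genes the mean ratio was between -0.37 ± 0.18 (SE) for SNRPE and -0.15 ± 0.19 (SE) for SNRPD3, with adjusted p of 0.746 and 0.834 by limma. With this design ESS2, with a mean of -1.90, also had an adjusted p of 0.746 by limma.

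**Figure D3:**
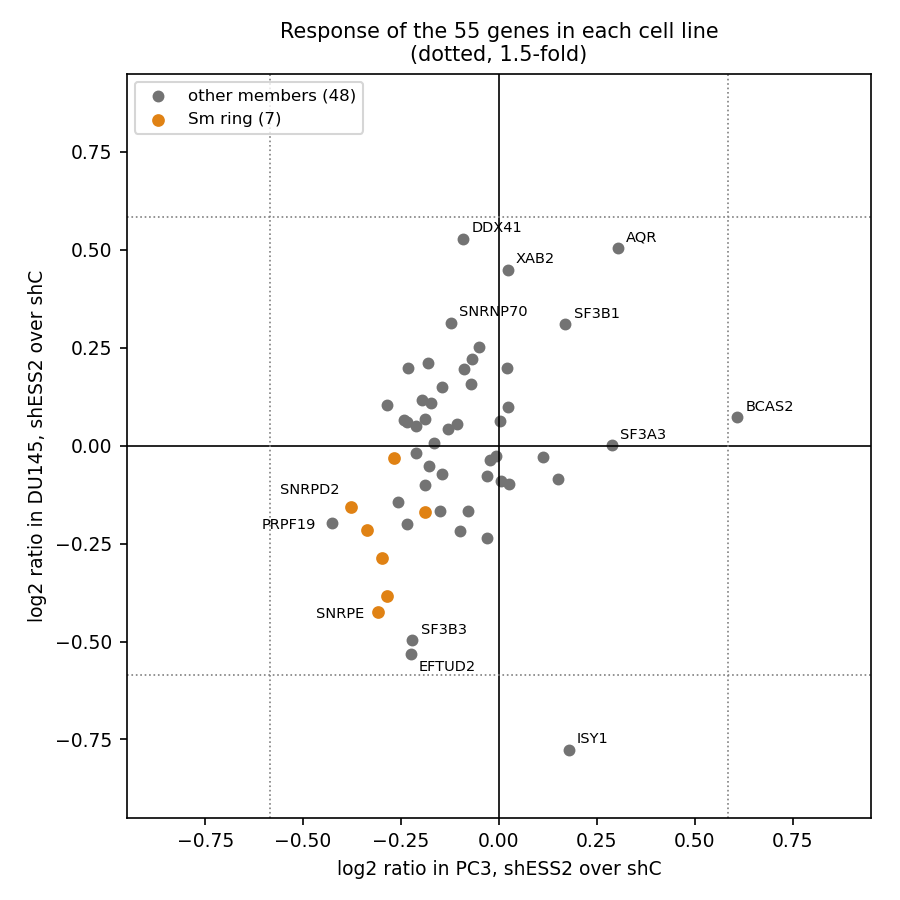
The log2 ratio of shESS2 over shC in PC3 (x axis) is plotted against that in DU145 (y axis) for the 55 genes, 1 array per condition, with the Sm ring in orange. The 7 Sm genes lie in the lower left quadrant, with SNRPD3 at -0.03 in DU145 on the other side of 0 under quantile normalisation and normexp. ISY1 and DDX41 have opposite signs in the 2 lines, with DDX41 in PC3 at -0.09, beside a spot SD of 0.084. Of the 55 genes, 19 are lower in PC3 and higher in DU145, and 5 the reverse.

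The ratio also varied with the level of the gene. In PC3 the 1325 genes at a scaled log2 level of 5 or more had a median ratio of -0.13, and the 16 spliceosome genes among them -0.23, with 15 of 16 below 0 where 69.4% of all such genes were. In DU145 the 972 genes at this level had a median of -0.07, and the 12 spliceosome genes -0.21, with 11 of 12 below 0 against 61.9%. Between levels of 0 and 3 the medians of the spliceosome genes were -0.07 in PC3 and 0.06 in DU145, against -0.06 and -0.01 for all genes.

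The levels of these genes differed more between the 2 control arrays than between knockdown and control. Of the 55 genes 48 had a higher level on PC3-shC than on DU145-shC, as had 9511 of all 17475 genes compared. The median difference was 0.78 on the log2 scale, against 0.12 for all genes. Taken without its sign, the median difference was 0.78 for the 55 and 0.82 for all genes. Under median scaling, quantile normalisation and the authors' scaled values the median of the 55 was 1.24, 0.29 and 0.34. That of all genes was 0.59, 0.02 and -0.31, a difference of 0.64, 0.28 and 0.65. These medians of all genes were computed apart from the 0.12 above, and with the main scaling gave 0.14, a difference of 0.64. Of the 55, 53, 40 and 36 were higher in PC3 under the alternatives, and 46, 38 and 46 lay above the median of all genes. Past 2-fold there were 16 of 55, against a background of 42.0% in either direction, and 16 of these 16 were higher in PC3, where 22.1% of all genes were. Of the 16, 10 were also past 2-fold in the same direction between the knockdown arrays, as were 5769 of the 7343 genes past 2-fold overall. The PRP19 core gave 4 of its 5 genes, PRPF19, PLRG1, BCAS2 and CWC15, with a median of 1.43. SNRPB2, the U2 protein that binds its snRNA with SNRPA1, was 4.52-fold higher in PC3, at 4.99 against 2.81. BCAS2 was 3.94-fold higher, at 4.51 against 2.54. PRPF31, the U4 protein mutated in retinitis pigmentosa, was 3.72-fold higher, at 5.79 against 3.90. The lowest difference of the 55 was that of the second step factor PRPF18, at 1.04 in PC3 and 1.73 in DU145. The count past 2-fold also depended on the scaling, with 31, 8 and 7 genes past 2-fold under median scaling, quantile normalisation and the authors' scaled values, 2 of the last 7 being higher in DU145. Each line was on a slide of its own, with its own version of the Agilent Feature Extraction software, so line and slide cannot be told apart. The release year of the array grid also differed between the lines.

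**Figure D4:**
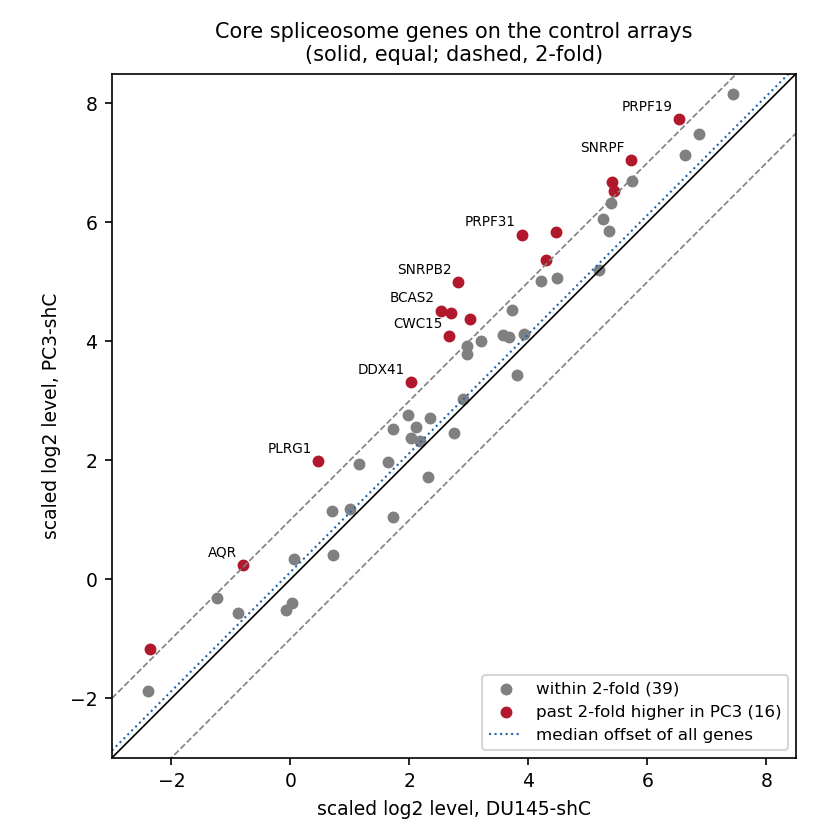
The scaled log2 level on DU145-shC (x axis) is plotted against that on PC3-shC (y axis) for the 55 genes, 1 array each; the solid line marks equal levels, the dashed lines 2-fold and the dotted line the median offset of all genes. Past 2-fold lie 16 genes, all on the PC3 side.

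Other genes of the splicing machinery were read from a list. It held 92 further genes, among them the LSM ring, the U1- and U2-associated factors, the B, Bact and C complex proteins, the exon junction complex and the minor spliceosome. ESS2 is on it, and of the other 91 genes 0 were past 2-fold in either line. Past 1.5-fold were 2 in PC3, both lower, where 20.0% of all genes were past it and 9.98% lower, and 0 in DU145, where 15.8% were. PRPF40B, a U1-associated factor, had signals of 249 and 155 on the PC3 control and knockdown arrays and of 186 and 181 on those of DU145, with log2 ratios of -0.82 and -0.08. DDX46, the helicase of U2 recruitment, had signals of 204 and 133 in PC3 and of 248 and 253 in DU145, with -0.76 and -0.01. The LSM ring, which binds the U6 snRNA as the Sm ring binds the others, was lower in 7 of 7 genes in both lines, with medians of -0.24 in PC3 and -0.22 in DU145; in PC3 the count was 4 of 7 under quantile normalisation, 5 of 7 in the authors' scaled values and 6 of 7 with normexp. The 31 Bact and C complex proteins other than ESS2 had medians of -0.02 in PC3 and 0.05 in DU145, with 19 and 12 of them lower.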

How the data were processed

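The authors deposited the Agilent Feature Extraction output of each array, in which the processed signal is an intensity per spot after background subtraction and removal of spatial trends. They also deposited a table of scaled intensity values of the same arrays, each column being the processed signal times 1 constant. The file headers name versions 12.1.0.3 (PC3) and 12.0.3.1 (DU145) of the software and an hg19 design. Labelling started from 0.1 µg of total RNA.

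From these, log2 of the processed signal minus the 75th percentile of each array was computed. Control and outlier spots were left out, spots of 1 probe were averaged, and the brightest probe stood for a gene. Accessions were matched without versions to RefSeq GRCh38.p14, and 35080 of 58201 probes had a symbol. A gene was compared in a line if either of the line's 2 arrays had it well above background, and a dim value was raised to the lowest signal well above background. Limma 3.58.1 (R 4.3.3) was run at an adjusted p of 0.05 over genes that passed this background flag on 2 or more of the 4 arrays. It was also run on simulated data with equal shifts in both lines and noise of the size of the spot error. That run does not show what the fit can call at the spread between these arrays. Nothing says that the arrays came from separate cultures, so a p-value measures only the spread between them.

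The genes, lists and motifs were chosen with earlier results of these data known. Named were ESS2, an anchor of each subcomplex, the 5 highest and 5 lowest ratios in each line, genes past the fold thresholds or in disagreement between probes, and the rest of a small group where it helped the description. Alternatives were the scaling, background correction, filter, dim values, choice of probe, outlier spots, the block and the authors' scaled values.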

Additional observations from a re-analysis of the deposited data

Results flagged for a closer look

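ISY1 had a log2 ratio of 0.18 in PC3 and of -0.78 in DU145, opposite signs that were both larger than 2 spot SDs. With 1 array per condition this difference between the lines was not tested. Across the alternatives the ratio lay between 0.07 and 0.27 in PC3 and between -0.82 and -0.59 in DU145.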

How the results depend on the processing

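The number of arrays, 1 per condition, limits the precision, and all 55 genes were well above background on all 4 arrays. The alternatives for the filter and for dim values could therefore not change the ratio of any of these genes. Keeping outlier spots also left their median ratio in each line unchanged. Part of the tallies of unmoved values below was thus fixed in advance. Of the recomputed summary values 89 moved by no more than the spot error or, for counts, by less than 1.5 times, among them the count of 0 genes past 2-fold in each line and 0 called by limma under every alternative run; with normexp 1 gene, SNRPE, had an unadjusted p under 0.05. Median scaling gave 0 genes past 1.5-fold in PC3, and counting each probe on its own gave 2 in PC3 (BCAS2 and a low-signal SNRPE probe) and 2 in DU145 (ISY1 and a low-signal SF3B3 probe). The median ratio of the 55 in PC3 was -0.25 with median scaling, -0.047 with quantile normalisation and -0.051 in the authors' scaled values. The number of genes past 2-fold between the control arrays was 31, 8 and 7 under these 3, in that order, a comparison added after seeing the data. In DU145 the median stayed within the spot error of 0, at -0.018 and, with median scaling, 0.011. For the named genes 344 values stayed within the spot error and 70 moved by more; the cause was not tested. None of these genes was called, and the sign of some small ratios turned, in PC3 for PRPF3 (-0.17 to 0.02), PRPF8 (-0.13 to 0.07), SLU7 (-0.17 to 0.02) and XAB2 (-0.08 to 0.12) and in DU145 for SF3A3 (-0.16 to 0.04). Taking the slide in place of the cell line as the block gave the same fit, since each line was on 1 slide. The line block pairs each knockdown array with the control of its line, and without it limma called 0 of the 55 too.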
